A study of Mus musculus with 42 samples.

Results

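The genes of the MEIS, PBX and PKNOX cofactors were examined as targets of binding in differentiating mouse motor neurons. The set held 8 genes, Meis1, Meis2, Meis3, Pbx2, Pbx3, Pbx4, Pknox1 and Pknox2, of 21938 protein-coding genes on the assembled chromosomes. A binding event was assigned to a gene when its position in the mm10 genome build lay within the gene's annotated span or the 50 kb at either side. Events of all 21 event lists that lay within 100 bp of each other were merged into 1 site. This gave 636 sites near the 8 genes, of 377386 sites over the genome.

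MEIS, PBX and PKNOX proteins belong to the TALE class of homeodomain proteins, which carry extra residues in a loop of the homeodomain. PBX proteins bind DNA next to HOX proteins and change which sequences a HOX protein selects, and MEIS and PKNOX proteins pair with PBX and, in the case of MEIS, also with posterior HOX proteins. In the developing spinal cord these cofactors take part in HOX-dependent motor neuron patterning, so their own genes are of interest as targets of the factors they serve.

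The measurement was chromatin immunoprecipitation sequencing (ChIP-seq) in mouse embryonic stem cell lines derived from Ainv15. Each line carried 1 tagged Hox gene, or 1 chimera, as a single copy at the HPRT locus and expressed it upon doxycycline (Dox). At day 3 (24 h of Dox) the full-length factors HOXC6, HOXC8, HOXA9, HOXC9, HOXD9, HOXC10 and HOXC13 and 4 chimeras were profiled, and at day 4 (48 h of Dox) HOXC6, HOXC9 and HOXC10 were. All of these cultures were embryoid bodies that received retinoic acid and the smoothened agonist SAG from day 0. HOXC6 and HOXC9 were also profiled in embryoid bodies labelled as treated with Dox alone for 12 h, written EB below. The chimeras HOXC13:C10.1 and HOXC13:C10.2 joined the N-terminal part of HOXC13 to the homeodomain end of HOXC10, and the HOXC10:C13 pair was the reverse, with the versions numbered 2 also exchanging a conserved stretch upstream of the homeodomain. The Hoxc13 sequence came from a human cDNA. MEIS was profiled at day 3 in iHoxc6.V5, iHoxc9.V5 and iHoxc10.V5 cells, and PBX at day 4 in iFlag.Hoxc9 and iFlag.Hoxc10 cells, so no line without an induced HOX factor entered the MEIS or PBX data. The transgenic factors were overexpressed from a Dox promoter, and most were captured through the Flag tag, while an HA antibody served for the second libraries of HOXA9, HOXD9 and HOXC13. For HOXC10 at day 3 the first library came from a V5-tagged line and an antibody to the protein itself.

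The 42 samples fell into 23 groups, of which 21 had an event list and 2 were control libraries. The lists rested on 40 libraries of 5036342 to 32883983 reads, and held from 848 events (PBX in iHoxc10) to 128388 (HOXC9 EB). The caller's share of reads in signal ran from 0.008 to 0.527 between libraries. Every list pooled its libraries, and the 5 MEIS and PBX lists held 1 library each, so no event had a value per replicate and no difference below could be tested against the spread between cultures. Intervals are exact 95% Clopper-Pearson intervals and cover counting error only. Because lists differed in length, events were ranked within their list by estimated ChIP reads, with rank 1 for the most reads, and the first 10000 are called strong events. The lists for MEIS in iHoxc6 (8219 events) and for PBX in iHoxc9 (1165 events) and iHoxc10 were shorter than that, so all of their events counted as strong.

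The following sites carry the results and are shown as the site's centre with 50 bases on each side, on the plus strand of GRCm38, the assembly of mm10. They were picked from the described sites of Meis1, Meis2, Meis3, Pbx3 and Pknox2 after their ranks were seen, to show sites that the factors ranked unequally, and sites in a UTR were left out. Each is named by its gene and its distance from that gene's annotated start in the direction of transcription. Capitals mark TAAT (homeodomain core), TTTAT (a core used by posterior HOX factors), TTTAC (its variant with C), TGATTTAT (a PBX half-site joined to that core) and TGACAG (MEIS), on either strand. TGATTTAT contains TTTAT, and neighbouring matches can run together.
Meis1 +102 kb, chr11:18916913-18917013: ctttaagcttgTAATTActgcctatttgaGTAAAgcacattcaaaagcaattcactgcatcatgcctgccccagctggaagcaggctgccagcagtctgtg
Meis2 +122.5 kb, chr2:115943256-115943356: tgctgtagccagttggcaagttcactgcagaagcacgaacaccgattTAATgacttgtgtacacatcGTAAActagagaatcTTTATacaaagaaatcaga
Meis2 +167.3 kb, chr2:115898508-115898608: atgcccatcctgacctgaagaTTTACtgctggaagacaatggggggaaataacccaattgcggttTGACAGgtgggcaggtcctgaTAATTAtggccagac
Meis2 +203.8 kb, chr2:115861968-115862068: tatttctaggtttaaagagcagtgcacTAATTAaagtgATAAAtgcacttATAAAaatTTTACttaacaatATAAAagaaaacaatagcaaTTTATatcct
Meis3 -1.755 kb, chr7:16173285-16173385: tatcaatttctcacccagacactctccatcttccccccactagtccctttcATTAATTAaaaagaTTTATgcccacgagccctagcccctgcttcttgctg
Pbx3 +84.44 kb, chr2:34288656-34288756: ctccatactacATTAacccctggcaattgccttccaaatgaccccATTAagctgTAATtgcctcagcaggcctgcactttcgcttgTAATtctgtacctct
Pbx3 +86.16 kb, chr2:34286930-34287030: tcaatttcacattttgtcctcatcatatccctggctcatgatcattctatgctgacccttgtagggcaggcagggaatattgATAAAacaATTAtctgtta
Pknox2 +57.14 kb, chr9:37090221-37090321: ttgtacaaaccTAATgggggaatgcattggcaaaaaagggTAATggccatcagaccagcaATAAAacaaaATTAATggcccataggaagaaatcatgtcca
Pknox2 +208.7 kb, chr9:36938619-36938719: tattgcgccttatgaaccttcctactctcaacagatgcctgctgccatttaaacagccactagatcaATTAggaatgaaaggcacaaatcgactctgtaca
At the Meis1 site the capitals near the 5′ end were TAAT on both strands followed by TTTAC on the minus strand. Among these sequences a TGACAG match was present in the Meis2 +167.3 kb site, which also held TTTAC and TAAT.

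Strong events gathered at Meis1, Meis2, Pbx3 and Pknox2 and were fewer at the other 4 genes. The windows of these 4 genes held 571 of the 636 sites (89.8%), with 144 at Meis1, 172 at Meis2, 149 at Pbx3 and 106 at Pknox2. Meis3 had 11 sites, Pbx2 19, Pbx4 15 and Pknox1 20. In mm10 the genes span chr11:18879817-19018985 (Meis1), chr2:115863064-116065839 (Meis2), chr7:16175090-16186504 (Meis3), chr17:34591266-34597400 (Pbx2), chr2:34171457-34373142 (Pbx3), chr8:69832491-69872292 (Pbx4), chr17:31564734-31607693 (Pknox1) and chr9:36890982-37147407 (Pknox2). Of the sites, 370 lay in an intron of the member itself, 38 within 1 kb of one of its transcript starts, 30 in its exons, 150 between genes and 48 in other genes. Sites in 10 or more lists made up 13.52% of the member sites, against 5.129% of all sites, and numbered 27 at Meis1, 24 at Meis2, 19 at Pbx3, 11 at Pknox2, 4 at Meis3 and 1 at Pknox1. The number of sites also follows window length, which was 239, 303, 302 and 356 kb for the first 4 genes and from 106 to 143 kb for the rest. Per 100 kb of window there were 60.2 sites at Meis1, 56.8 at Meis2, 49.4 at Pbx3 and 29.7 at Pknox2, against 9.87 to 17.9 at the remaining genes. Meis1 and Meis2 were the only protein-coding genes in their windows, whereas 10 others lay in the Pbx2 window, 9 in that of Pbx4 and 4 each in those of Meis3 and Pknox1. A site there cannot be tied to the TALE gene by position alone. The 8 windows made up 0.0624% of the assembled chromosomes and held 0.169% of all sites.

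**Figure D1:**
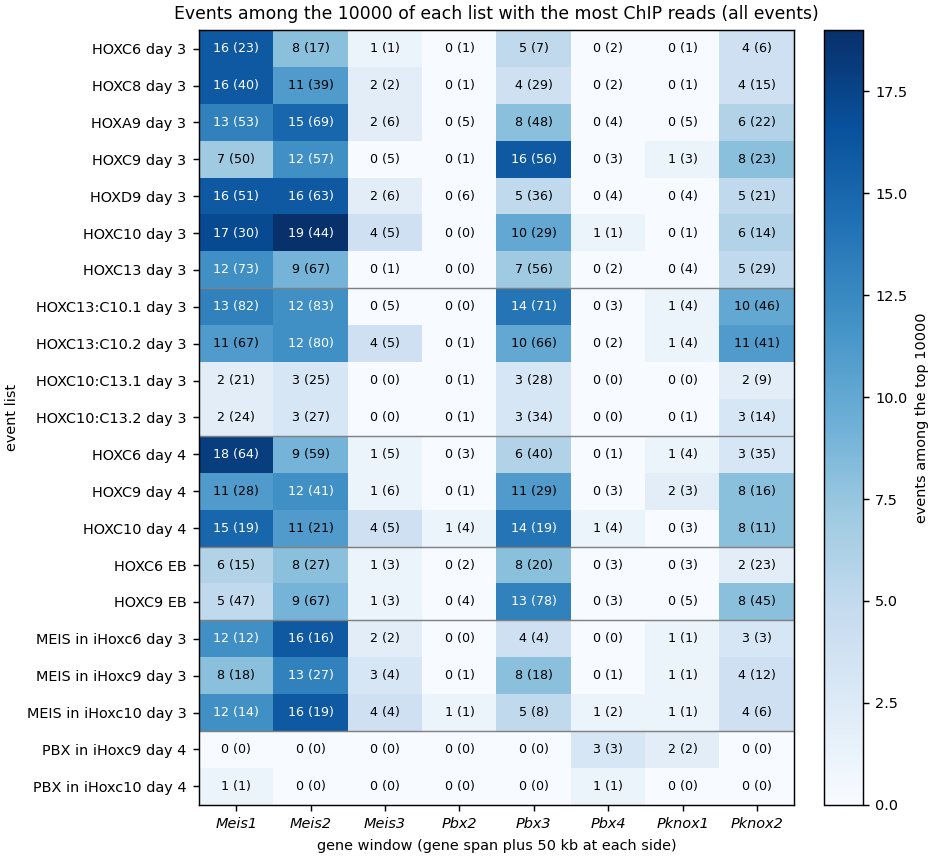
Number of strong events (the first 10000 of a list by estimated ChIP reads) in each gene window, by list, with the number of all events in brackets; the colour gives the strong events. Meis1, Meis2, Pbx3 and Pknox2 hold strong events in all 16 HOX lists and all 3 MEIS lists. Meis3 holds 0 to 4 in any list, and Pbx2, Pbx4 and Pknox1 are at 0 in most.

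The members held strong events more often than protein-coding genes did in general. Among all genes, the share with at least 1 strong event in its window was 25.7% for HOXC6 at day 3, 22.1% for HOXC8, 25.3% for HOXA9, 19.5% for HOXC9, 28% for HOXD9, 23.1% for HOXC10 and 26.1% for HOXC13. In these lists 4 to 6 of the 8 members held one, with the fewest for HOXC13 and the most for HOXC10. For the chimeras the background was 21.3% (HOXC13:C10.1), 21.4% (HOXC13:C10.2), 22.6% (HOXC10:C13.1) and 22.9% (HOXC10:C13.2), and 5, 6, 4 and 4 members held a strong event. At day 4 it was 22.2% for HOXC6, 19.3% for HOXC9 and 40.4% for HOXC10, with 6, 6 and 7 members. In EBs it was 32.9% for HOXC6 and 29.1% for HOXC9, with 5 members in either list. For MEIS it was 24.1% in the HOXC6 line, 25.4% in the HOXC9 line and 31.2% in the HOXC10 line, with 6, 6 and 8 members, and for PBX 16.9% in iHoxc9 cells and 2865 of the 21938 genes in iHoxc10 cells, with 2 members each. Longer windows hold more events, and 4 of the members have long windows.

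Events per 100 kb take window length out, and by this density Meis1 and Meis2 led for HOXC10. At day 3 more than 99% of protein-coding genes had fewer HOXC10 strong events per 100 kb than Meis1 (99.83% lower, at 7.11 events per 100 kb), Meis2 (99.80%, at 6.28), Meis3 (99.38%, at 3.59) and Pbx3 (99.28%, at 3.32). For HOXC6 at day 3 Meis1 stood higher than 99.87% of genes, and for HOXC13 higher than 99.83%. Among the HOX lists Meis1 stood lowest for the HOXC10:C13 chimeras, above 88.3% and 88.2% of genes. Over the HOX lists Pknox2 ranged from 71.8% of genes lower (HOXC6 EB) to 99.1% (HOXC13:C10.2). The median gene of the genome had a density of 0 in every list. The other TALE genes chosen for reference, Tgif1, Tgif2 and Irx1 to Irx6, held fewer strong events, 12 for HOXC10 at day 3 against 57 for the members, and 3 to 12 over the 16 HOX lists against 10 to 57. The median density was higher in the members in 15 of the 16 HOX lists, for example 1.53 strong HOXD9 events per 100 kb against 0, 3.20 for HOXC13:C10.2 against 0.854 and 2.50 for HOXC10 against 1.34. For HOXC13 it was lower, at 0.702 against 0.947. Windows of neighbouring Irx genes overlap, so some of their events count more than once.

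**Figure D2:**
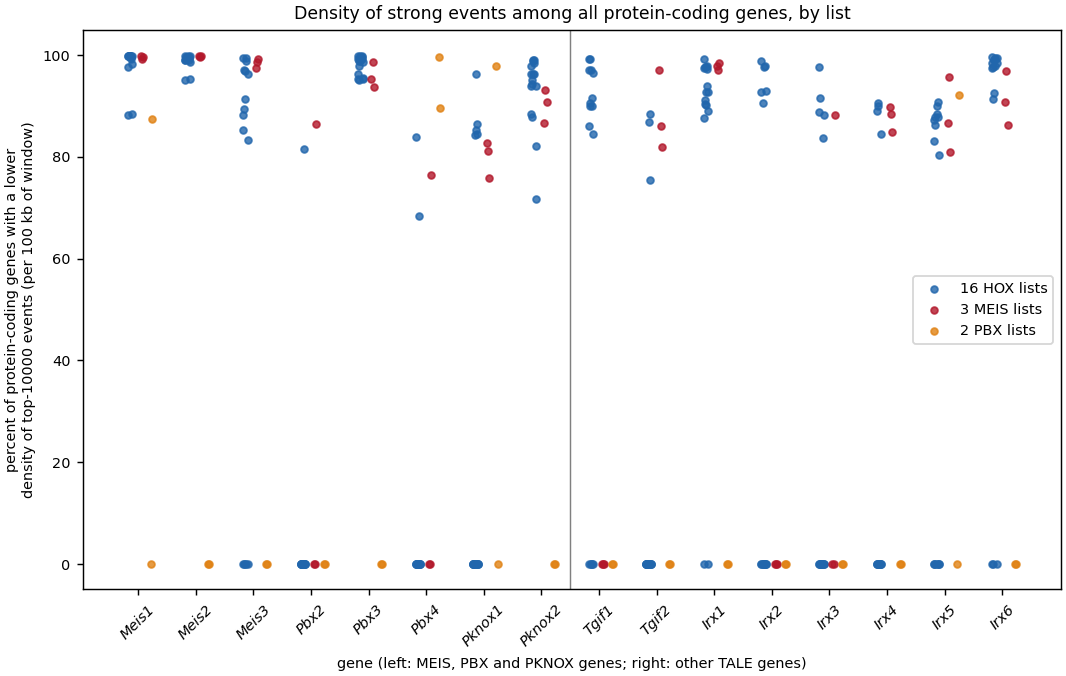
Percent of 21938 protein-coding genes with a lower density of strong events than the gene on the x axis; each point is 1 list, blue for HOX, red for MEIS and orange for PBX, and 0 means that the window held no strong event. Meis1, Meis2 and Pbx3 lie above 88% in all HOX lists, whereas Pbx2, Pbx4 and Pknox1 are mostly at 0.

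At Meis1, which encodes a MEIS cofactor, the stretch around the 3′ end held the most strong events. Counting each pair of a site and a HOX list that ranked it among its first 10000, 96 of 171 pairs (56.1%) lay within 30 kb of the annotated 3′ end, a stretch that is 25.1% of the window. At Meis2 it was 61 of 156 pairs (39.1%, of 19.8% of the window), at Pbx3 15 of 120 (12.5%, of 19.9%) and at Pknox2 3 of 89 (3.37%, of 16.8%). Within 10 kb of the annotated start lay 26 of the 120 pairs at Pbx3 (21.7%, of 6.63% of the window), 21 at Meis1 (12.3%, of 8.36%), 18 at Meis2 (11.54%, of 6.606%) and 7 at Pknox2 (7.87%, of 5.61%). These distances were chosen after the map of sites was seen. HOXC6, HOXC8 and HOXD9 had 16 strong events each at day 3, HOXC10 had 17, HOXA9 13 and HOXC13 12, whereas HOXC9 had 7 strong events among 50 in all. Of the 144 sites, 10 were held by all 7 full-length factors at day 3. The site +135.4 kb, in a UTR of Meis1 near its 3′ end at chr11:18883630, was held by all 16 HOX lists and all 3 MEIS lists. Its rank was 56 for HOXD9, 185 for HOXA9, 533 for HOXC10, 1104 for HOXC9, 1563 for HOXC6, 2360 for HOXC8 and 6563 for HOXC13 at day 3. The HOXC10:C13 chimeras ranked it lowest, at 24367 and 43030. The intronic site +102 kb was also held by all 16 HOX lists, yet by no MEIS list. It was rank 9 of the HOXC9 EB list, with 10152 estimated reads, and rank 77 for HOXC9 at day 3, against 1169 for HOXC6 EB, 5616 for HOXC6, 4683 for HOXC10 and 23290 for HOXD9. Thus the pair of sites was ordered oppositely by HOXC9 and by HOXD9.

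At Meis2, a paralog of Meis1, HOXA9, HOXC9, HOXD9 and HOXC10 ranked a pair of intronic sites far higher than HOXC6, HOXC8 and HOXC13 did. HOXC10 had 19 strong events at day 3, HOXD9 16, HOXA9 15 and HOXC9 12, against 8 for HOXC6 and 11 for HOXC8. The intronic site +122.5 kb was rank 11 for HOXC10 at day 4, 25 for HOXC10 at day 3, 28 for HOXA9 and 41 for HOXD9, and rank 376 for HOXC9. The HOXC6 list of day 3 had no event there, the HOXC8 list had it at rank 33453, and the HOXC6 list of day 4 at rank 28447. HOXC13 ranked it 3332 and the HOXC13:C10.2 chimera 1043. The intronic site +167.3 kb was rank 80 for HOXC10, 144 for HOXD9, 152 for HOXA9 and 388 for HOXC9, and rank 4259 for HOXC8, 10154 for HOXC6 and 63935 for HOXC13. No HOXC10:C13 chimera and no HOXC6 EB event lay at that site. The intergenic site -2.017 kb, just upstream of the gene, was held by all 16 HOX lists at a median rank of 9406, so that wide sharing and a high rank did not go together at this site. At +203.8 kb, past the 3′ end, HOXC13 had rank 1105 while the day 3 lists of the 6 remaining full-length factors had no event. This window held matches to TAAT and TTTAT on both strands and to TTTAC.

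Meis3, a small gene with 4 coding neighbours in its window, had few sites of which 4 of 11 were held by at least 10 lists. Both of its leading sites lay in the 3 kb upstream of the gene. The site -2.69 kb was held by 13 HOX lists and 3 MEIS lists and contained none of the motifs. HOXC13 had no event there. The site -1.755 kb was rank 1316 for HOXA9, 2000 for HOXD9, 2056 for HOXC13:C10.2 and 2793 for HOXC10 at day 4. It had no event in the lists of HOXC6 at day 3, HOXC13, the HOXC10:C13 chimeras or the EBs.

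**Figure D3:**
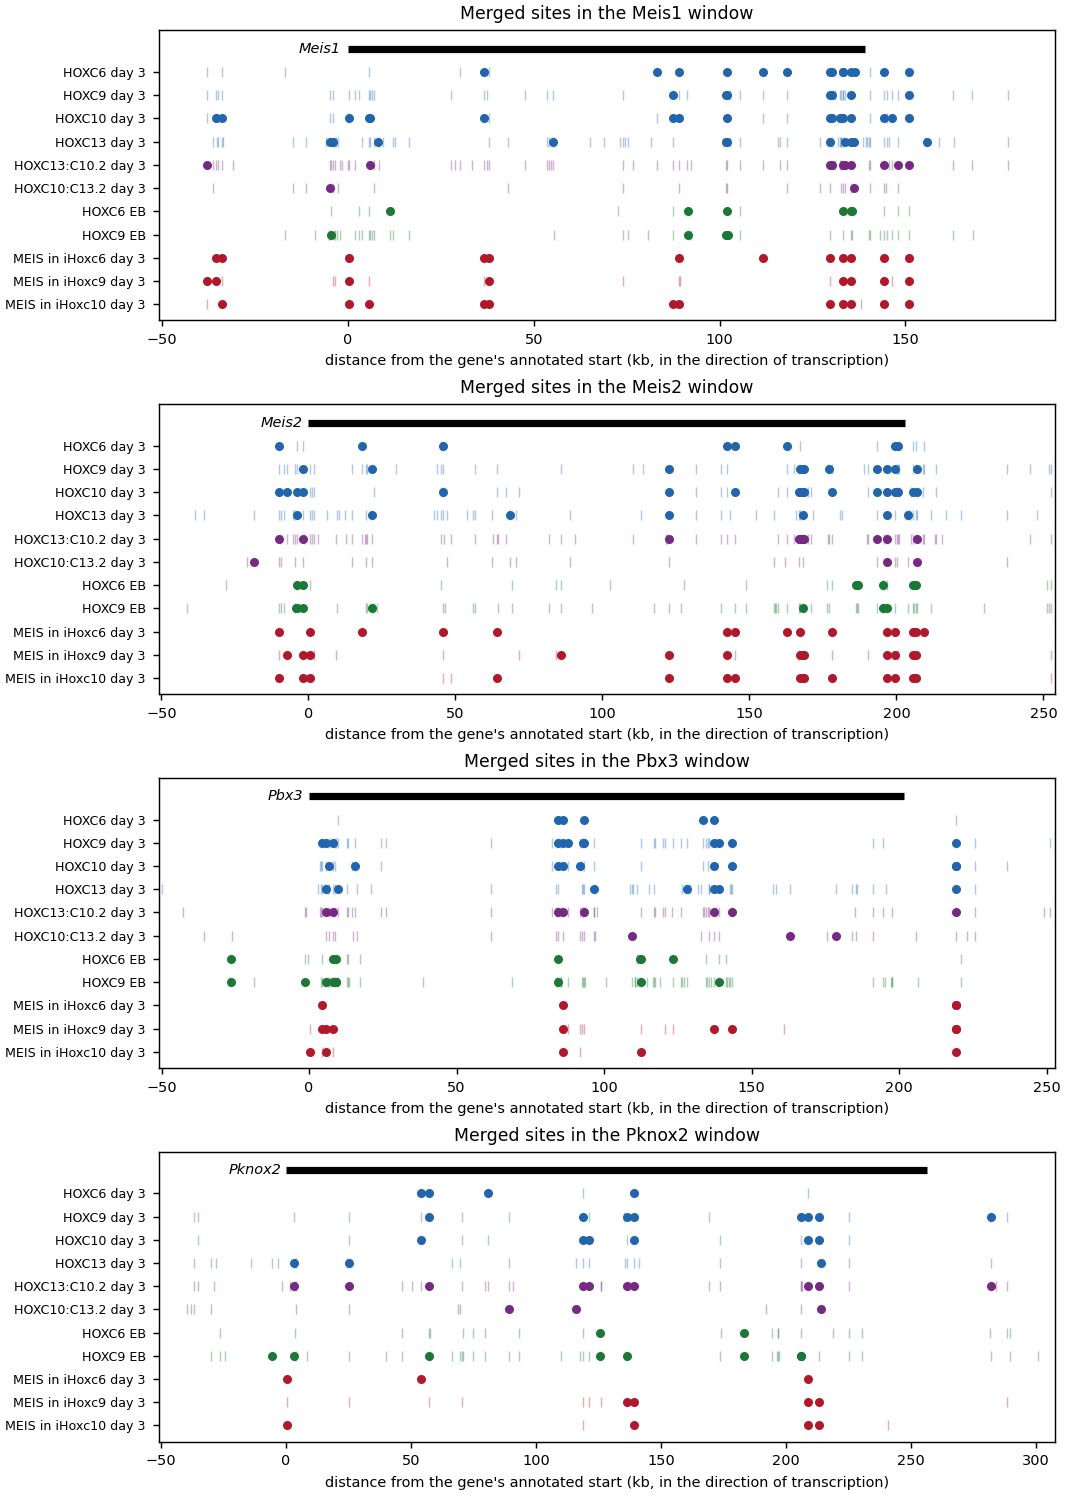
Merged sites in the windows of Meis1, Meis2, Pbx3 and Pknox2 by distance from the annotated gene start, for 11 of the 21 lists; dots are strong events, thin ticks weaker ones, and the black bar is the gene. Day 3 factors are blue, chimeras purple, EBs green and MEIS red; at Meis1 56.1% of the strong events of all 16 HOX lists lie within 30 kb of the 3′ end.

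Among the PBX genes, strong events lay at Pbx3 and hardly at Pbx2 and Pbx4. At Pbx3, HOXC9 had 16 strong events at day 3 and 13 in EBs, HOXC10 had 10 and HOXC13 7, against 5 for HOXC6 and 4 for HOXC8. A pair of its sites was ranked in different orders by the factors. The site +86.16 kb was rank 20 for HOXC8, 46 for HOXC6, 119 for HOXC6 at day 4 and 134 for HOXC10, against 3979 for HOXC9 and 11027 for HOXC9 at day 4. It had no event for HOXC13 or in either EB list. The site +84.44 kb, within 1 kb of an internal transcript start, was held by 15 of 16 HOX lists. HOXC9 EB gave it rank 113 with 5230 estimated reads, HOXC6 EB rank 1747, HOXC9 at day 3 rank 1446 and HOXC13 rank 26469. Pbx2 had 1 strong HOX event over all 16 lists, of HOXC10 at day 4 at rank 8513, in a UTR of the neighbour Agpat1, and no Pbx2 site was held by more than 5 lists. Pbx4 had 2 strong HOX events, both of HOXC10, and its intronic site +4.986 kb was rank 8601 for HOXC10 at day 3.

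The PKNOX genes, whose products are relatives of MEIS that pair with PBX, also differed. Pknox2 held strong events in every HOX list, from 2 (HOXC6 EB and HOXC10:C13.1) to 11 (HOXC13:C10.2). Its intronic site +57.14 kb was rank 104 for HOXC6 at day 4, 156 for HOXC8, 200 for HOXC13:C10.1, 321 for HOXC6 and 395 for HOXC9 at day 3. HOXC10 had no event there at day 3 or day 4, nor did HOXC13. The intronic site +208.7 kb was instead rank 187 for HOXC13:C10.2, 458 for HOXC10 and 776 for HOXC9, and rank 11842 for HOXC6. Pknox1 had 20 sites of which 13 were in 1 list only. Its leading HOX site, -23.2 kb, lay between genes and was held by 13 HOX lists, with its best rank at 1828 (HOXC9 at day 4).

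**Figure D4:**
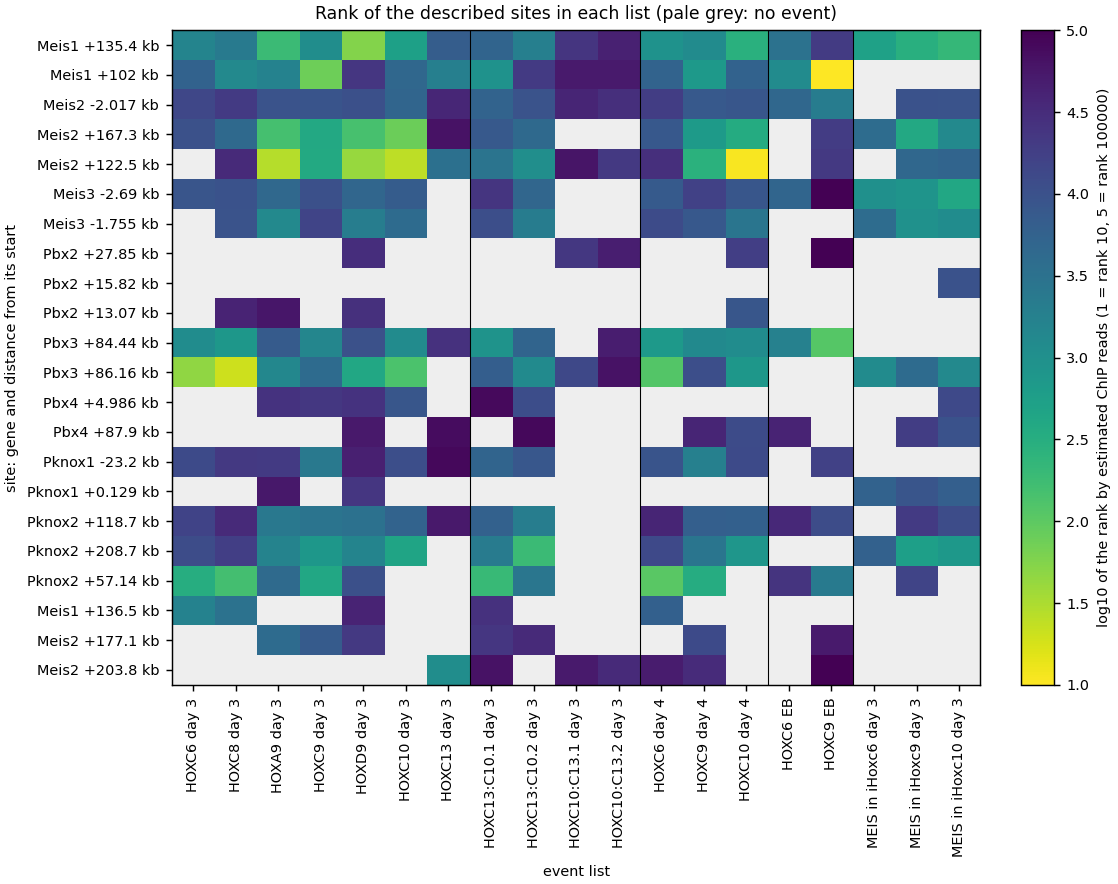
Rank by estimated ChIP reads, on a log10 scale, of each described site (rows) in the HOX and MEIS lists (columns); yellow is a high rank and pale grey means no event. Meis2 +122.5 kb is bright for HOXA9, HOXD9 and HOXC10 and grey for HOXC6 at day 3, and Pbx3 +86.16 kb is bright for HOXC6 and HOXC8 and grey for HOXC13.

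The sharing of strong events between factors followed the whole lists for some pairs. Of 57 strong HOXC10 events near the members, 56 had a HOXC9 event within 100 bp (98.2%, interval 90.6 to 99.96, against 94.98% over the whole strong list). All 17 at Meis1 did, although HOXC9 ranked most of its own Meis1 events outside its first 10000. In the other direction 34 of 44 strong HOXC9 events had a HOXC10 event (77.3%, interval 62.2 to 88.5, genome 66.1%). Of 34 strong HOXC6 events, 29 had a HOXC9 event (85.3%, interval 68.9 to 95.05, genome 80.1%), but only 52.9% when the HOXC9 list was cut to the length of the HOXC6 list. Of 44 strong HOXC9 events 18 had a HOXC6 event (40.9%, interval 26.3 to 56.8, genome 44.3%). For HOXC6 and HOXC8 the shares were near those of the whole lists, with 34 of 34 strong HOXC6 events at a HOXC8 event (genome 97.3%) and 32 of 37 in reverse (86.5%, genome 85.3%).

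HOXC13 and the posterior factors HOXC9 and HOXC10 shared a larger part of their strong events near these genes than over their whole lists. Of 33 strong HOXC13 events 22 had a HOXC9 event (66.7%, interval 48.2 to 82.0, genome 50.6%) and 13 a HOXC10 event (39.4%, interval 22.9 to 57.9, genome 17.5%), of which only the second interval excluded the genome value. In reverse, 33 of 44 strong HOXC9 events (75%, interval 59.7 to 86.8, genome 57.2%) and 32 of 57 strong HOXC10 events (56.1%, interval 42.4 to 69.3, genome 39.5%) had a HOXC13 event. Events of 1 locus are not independent of each other, so the true uncertainty is wider than these intervals. Taking HOXC6, HOXC9, HOXC10 and HOXC13 at day 3 together, 96 member sites had a strong event of at least 1 of them. Of these, 23 had an event of all 4, 21 lacked only HOXC6, 13 lacked only HOXC13 and 13 were of HOXC9 and HOXC10 alone. Sites of HOXC13 alone numbered 8, of HOXC6 alone 1, of HOXC9 alone 1 and of HOXC10 alone 0. The lists differ in length, with 17900 events for HOXC6, 26873 for HOXC10, 74085 for HOXC9 and 115879 for HOXC13, and the part of that in these classes was not tested. The same classes are not given over all sites, so these counts describe the member sites and do not set them apart from other sites.

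Strong HOXC6 and HOXC9 events at day 4 had a day 3 event of the same factor about as often as over the whole strong lists. For HOXC10 at day 4 and for HOXC6 in EBs the share was above that of the whole strong list. In reverse, from day 3, both shares were near those of the whole strong list. Of 45 strong HOXC9 events at day 4, 44 had a day 3 event (97.8%, genome 97.9%), and 32 of 38 HOXC6 events did (84.2%, genome 86.2%). For HOXC10 it was 47 of 54 (87%, interval 75.1 to 94.6, genome 73.1%). In reverse 44 of 57 strong HOXC10 events at day 3 had a day 4 event (77.2%, interval 64.2 to 87.3, genome 74.5%). The control library for HOXC10 held 4722105 reads at day 4 and 20590685 at day 3, whose part was not tested. Of 25 strong HOXC6 events in EBs 9 had a HOXC6 event at day 3 (36%, interval 18.0 to 57.5), against 12% over the whole strong list. At Meis2 4 of 8 did, and at Pbx3 1 of 8. In reverse 7 of 34 strong day 3 events had an EB event (20.6%, genome 22.1%). For HOXC9, 22 of 36 strong EB events had a day 3 event (61.1%, interval 43.5 to 76.9, genome 44.9%) and 37 of 44 day 3 events an EB event (84.1%, interval 69.9 to 93.4, genome 68.6%), of which the first interval holds the genome value. All 25 strong HOXC6 EB events had a HOXC9 EB event, near the 95.1% of the whole strong list. EB and day 3 cultures also differed in Dox time, 12 h against 24 h, and in the depth of the control library (10488520 reads against 20590685), so that these cannot be told apart from patterning.

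The chimeras with the homeodomain of HOXC10 had 50 and 49 strong events near the members, and those with the homeodomain of HOXC13 had 10 and 11. HOXC10 itself had 57 and HOXC13 had 33. At Meis1 the counts were 13 and 11 for the HOXC13:C10 pair and 2 each for the HOXC10:C13 pair, and at Pbx3 14 and 10 against 3 each. All 10 strong events of HOXC10:C13.1 had a HOXC13 event, as did all 11 of the other version (lower bounds 69.2% and 71.5%, genome 81.8% and 85.2%), while 3 of each had a HOXC10 event (30%, interval 6.67 to 65.2, genome 9.72%, and 27.3%, interval 6.02 to 61.0, genome 7.88%). HOXC13:C10.2 had 42 of 49 strong events at HOXC10 events (85.7%, genome 84.2%), and HOXC13:C10.1 had 32 of 50 (64%, interval 49.2 to 77.1, genome 50.5%). With HOXC13 it was 34 of 49 (69.4%, interval 54.6 to 81.8, genome 47.6%) and 34 of 50 (68%, genome 65.7%). These shares were counted against the whole parent lists, of 115879 events for HOXC13 and 26873 for HOXC10. They therefore do not rank the likeness of a chimera to its parents. At Meis3 only HOXC13:C10.2 of the chimeras had strong events, 4 as in HOXC10, and HOXC13 had none there.

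MEIS events lay at the MEIS genes themselves and at the other members. Over the 3 lines there were 93 sites with a MEIS event (14.6% of the member sites, against 6.87% of all sites), 30 at Meis2, 21 at Meis1, 17 at Pbx3, 14 at Pknox2 and 6 at Meis3. Pbx2 and Pbx4 had 2 each and Pknox1 had 1. As a share of the gene's own sites this was 14.58% at Meis1 and 17.44% at Meis2, beside 13.33% at Pbx4, 13.21% at Pknox2 and 11.41% at Pbx3. Pbx2 had 10.53% and Pknox1 5%, whereas Meis3, with 11 sites in all, had 54.55%. Of the 93, 29 had an event in all 3 lines, 19 in 2 and 45 in 1. Their densities placed Meis2 above 99.80%, 99.64% and 99.73% of genes in iHoxc6, iHoxc9 and iHoxc10 cells, and Meis1 above 99.79%, 99.30% and 99.71%. The best MEIS site near Meis1 was +135.4 kb in iHoxc9 and iHoxc10 cells, with ranks of 299 and 215, and rank 505 in iHoxc6 cells. Near Meis3 the site -2.69 kb had ranks of 991, 864 and 398 in iHoxc6, iHoxc9 and iHoxc10 cells.

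Most member sites held no MEIS event (14.6% did, against 6.87% of all sites), as was so of most sites nearest an annotated start. The nearest sites of Meis1, Meis2, Meis3, Pbx2, Pbx3 and Pbx4 held none, and those of Pknox1 and Pknox2 held MEIS in all 3 lines. Sites within 1 kb of a start that were chosen after their values were seen were Meis1 +0.306 kb, with MEIS ranks of 322, 2350 and 775 in iHoxc6, iHoxc9 and iHoxc10 cells, and Meis2 +0.541 kb, with 763, 1910 and 695. Pknox1 +0.129 kb, at the gene's 5′ end, had 5569, 8705 and 6204 and held a TGACAG match. Pknox2 +0.189 kb had 4667, 11832 and 3836 and was the one site among the 29 without an event of any HOX list. The nearest site to the start of Meis1, +0.029 kb, carried no MEIS event, but an event of PBX in iHoxc10 cells and events of 6 HOX lists.

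MEIS sites near the members were shared with many HOX lists. Of the 93, 87 had an event of at least 1 HOX list (93.5%, against 88.2% of all 25918 sites with MEIS) and 55 of at least 10 (59.1%, against 34.9%). Sites without MEIS have a HOX or PBX event by construction, and 24 of the 543 near the members (4.42%, against 2.14% of all such sites) had events of at least 10 HOX lists. In the line of HOXC9 67 of 82 MEIS events had a HOXC9 event (81.7%, interval 71.6 to 89.4, genome 66.8%), in that of HOXC10 40 of 55 a HOXC10 event (72.7%, interval 59.0 to 83.9, genome 53.9%), and in that of HOXC6 23 of 38 a HOXC6 event (60.5%, interval 43.4 to 76.0, genome 53.8%). The factor induced in the line did not always give the larger share, since 31 of the 38 MEIS events of iHoxc6 cells had a HOXC9 event (81.6%), whose list is longer. The whole MEIS list of iHoxc6 cells showed the same order, with 67.8% at a HOXC9 event and 53.8% at a HOXC6 event. MEIS events recurred between lines at shares near those of the whole lists. Of the 38 events of the HOXC6 line, 30 recurred in the HOXC9 line (78.9%, genome 72.7%) and 31 in the HOXC10 line (81.6%, genome 72.6%). Of the 82 events of the HOXC9 line, 30 recurred in the HOXC6 line (36.6%, genome 26.9%) and 44 in the HOXC10 line (53.7%, genome 44%).

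Some sites ranked unequally by the HOX factors were also ranked unequally by MEIS between lines. At Meis2 +122.5 kb, where HOXC6 had no day 3 event, MEIS had rank 4561 in iHoxc9 and 5169 in iHoxc10 cells and no event in iHoxc6 cells, where the whole list had 8219 events. At Meis2 +167.3 kb MEIS had ranks of 3807, 380 and 1308 in iHoxc6, iHoxc9 and iHoxc10 cells, at 52.1, 381.9 and 122.5 estimated reads. At Pknox2 +208.7 kb the MEIS ranks were 5786, 556 and 746, at 37.9, 326.1 and 163.9 reads. At Pbx3 +86.16 kb they were 1195, 3971 and 1316, but the reads were close to each other, at 109.3, 107.6 and 122.2. The HOX ranks of HOXC6, HOXC9 and HOXC10 at day 3 were 10154, 388 and 80 at Meis2 +167.3 kb, 11842, 776 and 458 at Pknox2 +208.7 kb, and 46, 3979 and 134 at Pbx3 +86.16 kb. These sites were picked after their values were seen, and ranks of lists of unequal length are set side by side. With 1 MEIS library a line these are values of single libraries. The MEIS lists differed in length (8219, 22749 and 12982 events) and in signal share (0.077, 0.238 and 0.119), whose part in the differences was not tested.

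PBX events near the members were few and lay at promoters. The share of all PBX events at promoters is not given here, so this does not set the members apart. The 2 PBX lists gave 7 events near the members, at 23.2 to 35.5 estimated reads against 0 to 0.5 control reads. In iHoxc9 cells 1 was at the Pknox1 start (chr17:31564330, rank 618 of 1165) and 1 at the start of Pbx4 (chr8:69832847, rank 957), and the remaining 3 at promoters of the neighbours Ndufv3 and Ndufa13. In iHoxc10 cells 1 was at the Meis1 start (chr11:19019074, rank 651 of 848) and 1 at the Ndufa13 promoter. No PBX event lay in the windows of Meis2, Meis3, Pbx2, Pbx3 or Pknox2. The PBX libraries held 23333969 and 21642395 reads with a signal share of 0.009 and 0.008, against 9704272 to 12136115 reads and shares of 0.077 to 0.238 for MEIS. The lists are short, and an absent PBX event does not show that PBX was not bound.

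Of the HOX motifs, TAAT, TTTAC and TGATTTAT had shares whose intervals held that of all sites, and TTTAT was less frequent. TAAT lay within 50 bp of 71.9% of the member sites (interval 68.2 to 75.3) and of 72.5% of all sites of the assembled chromosomes. TTTAT lay at 55.5% (interval 51.5 to 59.4) against 61.2%, and TTTAC at 28.1% (interval 24.7 to 31.8) against 30.3%. Among strong sites the TTTAT interval held the whole strong list's share for each full-length factor at day 3. For HOXC9 it was 64.1% (interval 47.2 to 78.8) against 67.3%, and for HOXC6 43.8% (interval 26.4 to 62.3) against 41.1%. The part of which lists supply the sites in the lower TTTAT share was not tested. Among the strong HOXC13 sites TTTAC reached 48.3% of 29, against 49.1% over its list. TGATTTAT was rare, at 4.25% (interval 2.82 to 6.12) against 3.36%. TGACAG lay at 23 of the 93 member sites with MEIS (24.7%, interval 16.4 to 34.8) and at 37 of the 543 without (6.81%, interval 4.84 to 9.27). Over the strong sites of the MEIS lists in the whole genome it was 19.8% to 22.5%, and over all sites 8.37%. The strong sites of the HOXC10:C13 chimeras near the members held TTTAT at 7 of 10 and 9 of 11, against 94.8% and 95.7% over their lists. A match describes the letters in the window and does not show a bound element.

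**Figure D5:**
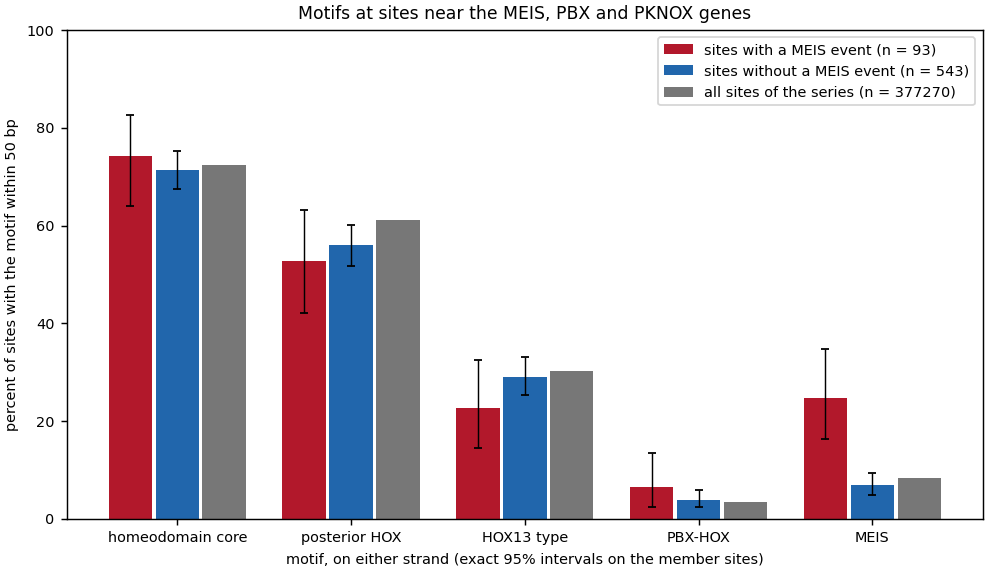
Percent of member sites with and without a MEIS event, and of all sites of the series, that hold each motif within 50 bp; bars start at 0 and error bars are exact 95% intervals. The MEIS motif is at 24.7% of sites with MEIS and 6.81% of sites without, and the 4 HOX motifs differ less.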

How the data were processed

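ChIP-seq libraries of 21 groups were compared through the event lists that the authors deposited. Per the study's methods, the authors aligned reads to mm10 with Bowtie 1.0.1 (single best hits) and called events with MultiGPS on the pooled libraries of each group, keeping those whose q-value over control was under 0.001. The edgeR 3.22.5 package served their comparisons between conditions. Picard 2.8.2 is named in the submitters' processing notes. The lists hold, as deposited by the authors, estimated counts of ChIP reads and of control reads per event, a log2 fold over control and a log2 q-value, which is treated here as a score, for an alternative ranking and a stricter threshold. Whether the estimated control counts were scaled is not stated. The authors' columns of edgeR fold changes and q-values between conditions hold their own comparisons and were not used, nor were the position tracks.

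Pooling hides the spread between cultures. Gene spans and transcripts came from GENCODE mouse release 21, sequences from GRCm38.p6. A site's position is the median of its events. Promoter means within 1 kb of a transcript start. Sharing means an event within 100 bp. Depth per library is given above. The described sites were, for each gene, the site held by the most HOX lists, the one with the best MEIS rank, the one with the best HOX rank, and the best site of HOXC6, HOXC9, HOXC10 or HOXC13 alone. The members, lists and rules were chosen with earlier results of these data known. Python 3.11.15, numpy 2.4.6, pandas 2.3.3 and scipy 1.17.1 were used, and 8 of 8 checks on simulated data were met. Alternatives varied the flank, merging, sharing distance, ranking, list length and motif window. No statistical test was run, since no file holds values per replicate.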

Additional observations from a re-analysis of the deposited data

How the results depend on the processing

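The main choices were a flank of 50 kb, merging and sharing within 100 bp, and the first 10000 events by estimated reads. The number of merged sites was 636 and ranged from 542 (deposited q under 1e-05) to 763 (flank of 100 kb), all within 1.5 times of it. Counts of strong events followed the number of events taken. With 5000 they were 19 for HOXC6 and 32 for HOXC10, against 34 and 57, and with 20000 they were 58 for HOXC6, 72 for HOXC9, 98 for HOXC10 and 56 for HOXC13. Ranking by q-value moved none of 28 sharing shares and event counts beyond its interval or 1.5 times. With lists of equal length, 85.96% of strong HOXC10 events and 52.94% of strong HOXC6 events had a HOXC9 event, lower than with the whole HOXC9 list, which is longer. Within 200 bp, sharing reached 100% for HOXC6 from day 3 to day 4 and for HOXC9 in both directions, as it did with a 20 kb flank for HOXC9 from day 4 to day 3. The share of MEIS events in iHoxc9 cells with a HOXC9 event was 96.77% with MEIS lists of equal length and 68.29% within 50 bp. The motif shares grew with the window by construction. Within 25 bp they were 49.37% for TAAT, 39.31% for TTTAT, 15.88% for TTTAC, 2.673% for TGATTTAT and 3.616% for TGACAG, and within 100 bp 83.65%, 70.75% and 45.13% for the first 3 and 16.35% for TGACAG. Over the 163 sites with a strong event, TTTAT was at 49.69%, TGATTTAT at 2.454% and TGACAG at 15.34%, and the cause was not tested. For HOXC6, HOXC9, HOXC10 and HOXC13, the percent of genes below Meis1, Meis2, Pbx3 and Pknox2 was 89.13 or higher under every alternative. The order among these 4 genes did change. For HOXC6 with 5000 events Meis2 went from 99.03% to 90.93%, below Pbx3 at 98.1%. The percent for Meis3, Pbx2, Pbx4 and Pknox1, which rest on few events, was counted as moved in 17 cases. Examples are Meis3 for HOXC9, from 0% of genes lower to 98.58% with 20000 events, and for HOXC6, from 88.14% to 0% with 5000. Pknox1 went for HOXC9 from 86.47% to 0% with a 20 kb flank, and under ranking by q-value from 0% to 82.03% for HOXC6 and 84.52% for HOXC10.

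No paired analysis was possible because each list pools its libraries and gives no value per replicate, and no library was left out in turn for the same reason. The 5 MEIS and PBX lists rest on 1 library each, and the PBX lists are short, with 1165 and 848 events.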
